A study of Homo sapiens with 32 samples.

Results

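Cells of MDA-MB-231, a breast cancer line without hormone receptors or HER2 that has mesenchymal features, were treated for 24 h with an inhibitor of EZH2, labelled EPZ, or were left without treatment as control. The comparison described here sets the 4 H3K27me3 libraries of cells given EPZ alone against the 4 H3K27me3 libraries of control cells, 8 of the 32 samples of the series. The same series holds 4 H3K27me3 libraries of cells given a p38 MAP kinase inhibitor (P38i) and 4 of cells given P38i with EPZ (combo), and 16 IgG libraries that were not used here. All groups are the same line grown in the same medium, and all were measured with the same antibody. The labels give no dose and no full compound name for EPZ.

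H3K27me3 is the trimethyl mark on lysine 27 of histone H3. It is written by Polycomb repressive complex 2, in which EZH2 is the catalytic subunit, and it lies in broad domains over genes that a cell lineage keeps silent. An inhibitor of the enzyme stops new marks from being made, and old marks are then thinned by DNA replication and by demethylases. The readout used here is the share of a gene, bin or domain that lies inside called islands, which are runs of enriched windows of 200 bp.

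EPZ lists covered 474 to 587 Mb and control lists 484 to 669 Mb, so the groups overlapped in total. The difference in covered length was -62.3 Mb (exact permutation test, p = 0.229). Any 2 control lists shared 60.5 to 68.7% of their joint covered length, any 2 EPZ lists 57.7 to 62.8%, and a control and an EPZ list 56.8 to 65.6%. EZH2 itself and MAPK14, the gene of p38 alpha, had no island in any of the 16 libraries. Of 11 mesenchymal and basal markers of the line, such as VIM, CD44 and AXL, all lay below 5% coverage and 10 were free of islands in all 16 lists. All 39 housekeeping genes were free of them too. Most genes were in this state: of 19970 annotated genes, 15515 lay below 5% and 13581 had no island in any library.

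Far more genes lost island coverage than gained it, among the losses GPR65, CD69 and the odorant receptor gene OR52N5. Of 4104 genes tested, 130 passed (limma, adjusted p under 0.05), which is 3.17%. Of these, 125 lost coverage (3.05%) and 5 gained it (0.122%). The 125 genes fell by a median of 29.4 percentage points, from a median coverage of 50.3% in control to 13.6% in EPZ. The median over all tested genes was -4.42 points, and 73.3% of tested genes were lower. With each library's covered length as a covariate that median was -0.88 and 69 genes fell while 35 rose. With lists trimmed to equal covered length the median was -0.48 and 15 fell while 6 rose. The trim kept the widest islands of each list up to 474 Mb, the length of the shortest list, EPZ 1. It thus removed narrow islands from the longer lists and none from EPZ 1, so it is not a neutral correction for depth. Fitted on the 8 libraries of the 2 groups alone, 23 genes fell and 2 rose. Leaving out 1 library moved the number that fell to 18 without control 1, 11 without control 2, 11 without control 3, 410 without control 4, 18 without EPZ 1, 11 without EPZ 2, 68 without EPZ 3, 199 without EPZ 4 and 216 without P38i 4. The number that rose went to 3 without control 1, 0 without control 2, 0 without control 3, 1 without EPZ 1, 1 without EPZ 2, 2 without EPZ 3, 3 without P38i 1, 11 without P38i 4 and 2 without combo 4. Control 4 had the smallest covered length of the controls, 484 Mb. Of the 36 genes named by rule, 28 no longer passed in the fit of the 2 groups, 34 on lists of equal covered length and 33 without control 2, and none changed direction. Every one of the 125 genes stayed lower with covered length as a covariate and without any 1 control or EPZ library. The 125 genes and the 36 named genes were chosen by their change in these same libraries, which favours a kept direction.

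Of the 8 largest falls 3 were in olfactory receptor genes of separate families, although odorant receptors as a list fell no more often than all genes (3 of 207). TAAR9, a trace amine receptor of olfactory neurons (chromosome 6: 132538277 to 132539336), was covered by 100, 83.1, 100 and 23.7% in the control libraries and by 0% in all 4 EPZ libraries. The groups did not overlap, although control 4 lay far below the other controls. The difference was -76.7 points (SE 15.1, adjusted p = 0.0247). OR52N5, an odorant receptor (chromosome 11: 5776165 to 5783355), had 96.3, 82.0, 100 and 52.5% in control against 0, 31.6, 0 and 19.7% in EPZ. Its fall of 69.9 points had the smallest adjusted p of the 8 largest falls (SE 10.4, adjusted p = 0.00682). OR2AG1, another odorant receptor (chromosome 11: 6783020 to 6791558), had 100, 94.1, 100 and 100% in control and 58.2, 24.1, 67.5 and 0% in EPZ. Control was almost fully covered here while the EPZ libraries were spread widely, and the difference was -61.1 points (SE 14.3, adjusted p = 0.0362).

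The acid-sensing receptor gene GPR65, active in lymphoid and myeloid cells (chromosome 14: 88005135 to 88014811), was covered by 94.5, 87.7, 90.7 and 57.2% in control and 6.21, 22.6, 21.2 and 17.1% in EPZ. The lowest control lay well above the highest EPZ library. Its difference of -65.8 points (SE 10.6, adjusted p = 0.0105) kept its call in every alternative except lists of equal covered length. CD69, the early activation antigen of lymphocytes (chromosome 12: 9752486 to 9760901), had 82.0, 88.0, 83.5 and 41.7% in control against 16.4, 0, 22.4 and 14.9% in EPZ. Control 4 was again the lowest control, yet above all EPZ libraries, and the difference was -60.4 points (SE 13.3, adjusted p = 0.0317).

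A defensin, a keratin and a testis gene completed the 8 largest falls. DEFB113, a beta-defensin gene (chromosome 6: 49968677 to 49969625), had 100, 72.7, 100 and 79.8% in control and 15.5, 32.4, 0 and 0% in EPZ. It fell by 76.2 points (SE 17.4, adjusted p = 0.0338), with no overlap of the groups. KRT24, a type I keratin (chromosome 17: 40697991 to 40703752), had 93.9, 64.7, 88.8 and 64.7% in control and 17.2, 0, 35.8 and 35.3% in EPZ. Its difference was -56.0 points (SE 13.3, adjusted p = 0.0385). TEX47, a testis-expressed gene (chromosome 7: 88794106 to 88795737), had 84.9, 100, 84.9 and 78.3% in control and 48.8, 0, 18.7 and 60.9% in EPZ. It fell by 55.0 points (SE 13.1, adjusted p = 0.0388), and its EPZ libraries ranged from 0 to 60.9%. All 8 were short genes, from 0.949 kb (DEFB113) to 9.68 kb (GPR65). The median length was 33.7 kb over all tested genes and 56.0 kb over the 125 that fell. In a short span 1 island takes a large share, so a ranking by points favours short genes. In TAAR9, DEFB113 and TEX47 most of the measured span was the added 2.5 kb on each side.

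The other 12 of the 20 largest falls were between 45.9 and 55.0 points, and 10 of them had groups that did not overlap. MSGN1, a transcription factor of presomitic mesoderm, fell by 55.0 points from 86.6 ± 11.6% to 31.6 ± 14.2% (SD, n = 4 each; limma adjusted p = 0.0338). CGA, the common alpha subunit of the glycoprotein hormones, fell by 54.8 points and KRT28, a keratin of the hair follicle, by 54.4. LPAR4, a lysophosphatidic acid receptor on the X chromosome, went from 61.2 ± 12.8 to 6.82 ± 7.87% (n = 4 each; limma adjusted p = 0.0253). RGS13, a regulator of G protein signalling in germinal centre B cells, fell by 52.4 points and ASB15, an ankyrin repeat protein, by 46.9. CLEC7A, the beta-glucan receptor dectin-1, fell by 53.6 points and its neighbour CLEC12B, an inhibitory lectin receptor, by 49.9. The protease gene TMPRSS11B fell by 48.6 points, the odorant receptor OR56B2 by 45.9 and AMTN, an enamel protein gene, by 45.9. TAS2R9, a bitter taste receptor, fell by 53.3 points but had 0% in control 3 and 0% in every EPZ library. Its groups thus overlapped, as did those of AMTN. TAS2R9 was also at 0% in every combo library and averaged below 5% in P38i. It therefore passed the filter of a mean of at least 5% over the 16 libraries only through control, where it is high. The EPZ and combo groups at 0% throughout also lower its spread in the test. In the limma fit of the 2 groups its adjusted p was 0.163.

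The 5 rises were smaller in size. MSANTD5 (chromosome 5: 178691534 to 178707472) had 0% in all 4 control libraries and 27.7, 10.3, 59.9 and 36.1% in EPZ, a rise of 33.5 points (SE 7.92, adjusted p = 0.0375). GRM6, the glutamate receptor of retinal ON bipolar cells (chromosome 5: 178978327 to 178995320), lies less than 1 Mb away. It had 0% in all controls and 18.2, 13.5, 20.9 and 22.6% in EPZ, a rise of 18.8 points (SE 4.45, adjusted p = 0.0375). Both were thus listed without an island in control, where the spread is 0, so only a rise was possible. Genes were tested only at a mean of at least 5% over the 16 libraries. MSANTD5 averaged 2.35% in P38i and 24.9% in combo, and GRM6 7.89 and 28.1%. Both therefore passed this filter only through the libraries given EPZ, where they are high. ZNF560, a zinc finger gene (chromosome 19: 9445876 to 9506692), had 41.3, 42.8, 10.3 and 18.8% in control and 48.9, 52.6, 76.0 and 67.1% in EPZ (difference 32.8, SE 8.16, adjusted p = 0.0435). LRRC38, an auxiliary subunit of BK potassium channels (chromosome 1: 13474973 to 13514003), had 20.9, 5.45, 0 and 5.45% in control and 30.9, 36.3, 36.8 and 35.3% in EPZ. Its EPZ libraries lay close together, and the rise was 26.9 points (SE 5.45, adjusted p = 0.0253). OR3A1, an odorant receptor (chromosome 17: 3291017 to 3298360), had 94.7, 78.5, 83.3 and 80.1% in control and 94.7, 96.3, 94.7 and 99.5% in EPZ. The groups touch at 94.7%, and the rise of 12.2 points (SE 3.11, adjusted p = 0.0476) is the only one of the 5 without a gap.

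**Figure D1:**
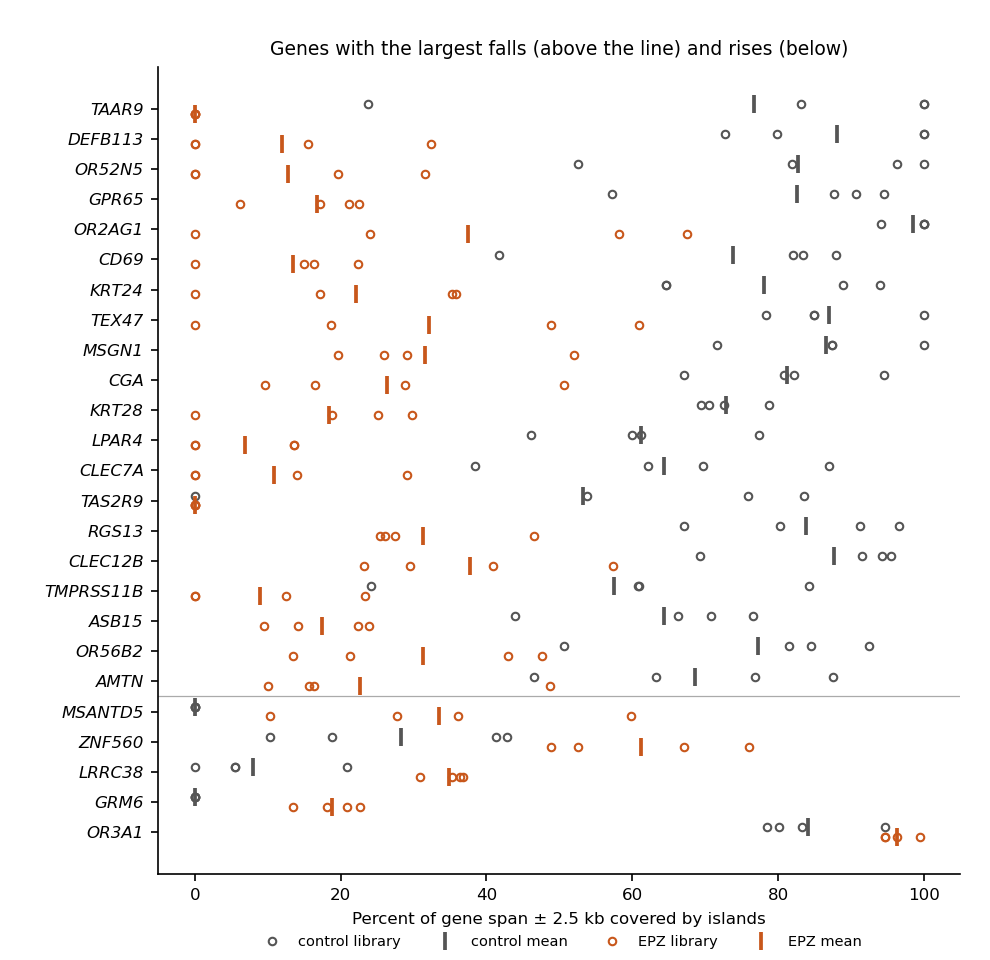
Percent of each gene span with 2.5 kb on each side covered by islands (x axis) for the 20 largest falls and the 5 rises; open circles are single libraries and vertical ticks are group means, control in grey and EPZ in orange. The EPZ libraries lie left of the control libraries above the line, with TAS2R9 and AMTN overlapping, and right of them below it, with OR3A1 touching at 94.7%.

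Groups of all libraries were separate in 345 of 4104 tested genes (8.41%): every EPZ library was below every control library in 322 genes (7.85%) and above in 23 (0.56%). Among the 125 that fell the groups were separate in 113, which the test itself favours. At an unadjusted p under 0.05 there were 785 lower genes (19.1%) and 72 higher genes (1.75%). Of the fallen genes 6 had no island in any EPZ library. Among all tested genes 105 had none in any EPZ library and 69 none in any control library.

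Several falls were neighbours. Of the 125 genes, 45 lay in 18 groups in which each gene is within 1 Mb of the next, so that a whole group can be longer. The number that the spacing of tested genes alone would give was not computed. The group with the most genes, on chromosome 12, was CD69, KLRF2, CLEC12B, CLEC7A and TAS2R9, the natural killer gene complex with a bitter taste receptor cluster beside it. Over this stretch of 1058 kb (chromosome 12: 9752486 to 10810168) islands covered 27.4, 31.2, 27.1 and 17.1% in control and 12.7, 12.1, 15.5 and 20.9% in EPZ. Control 4 lay below EPZ 4, so the groups overlapped at this scale. All 16 tested genes of the 30 in the stretch were lower, by a median of 23.9 points, and 5 passed the test. Over all tested genes 73.3% were lower and 3.05% fell. The stretch was chosen and bounded by its own called genes, so the 5 calls lie in it by construction. Some genes overlap, as KLRF2 lies inside CLEC2A, and share islands. Chromosome 11 held OR56B2, OR52N5, OR2AG1 and OVCH2. Chromosome 2 held the sodium channel genes SCN2A and SCN9A with GRB14 and CSRNP3. On chromosome 13 LCP1, an actin-bundling protein of blood cells, fell with LRRC63 and RUBCNL, and on chromosome 7 ASB15 fell with NDUFA5 and SLC13A1. On chromosome 6 VIP, a neuropeptide, fell by 43.4 points beside MYCT1, and TAAR9 beside TAAR1.

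**Figure D2:**
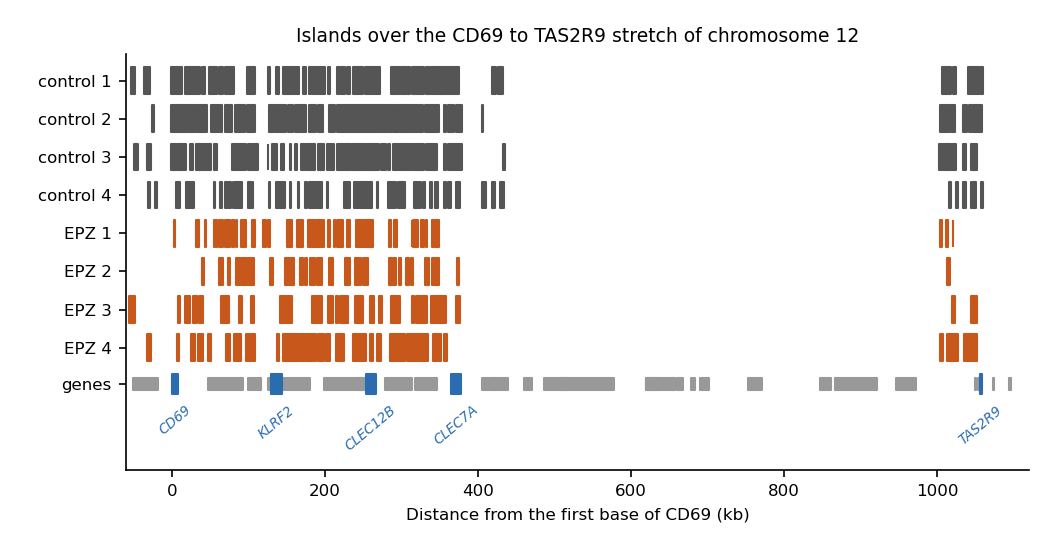
Islands of each control (grey) and EPZ (orange) library over the chromosome 12 stretch from CD69 to TAS2R9, by distance in kb from the first base of CD69; blue bars are genes that fell and grey bars other protein-coding genes. The 3 broadest controls cover 27.1 to 31.2% of the stretch and the EPZ libraries 12.1 to 20.9%, with control 4 at 17.1%.

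Genes were then described by lists of lineage and family. Some members were placed with earlier results known, so the counts are a description. The background for every list is the whole table, with 3.05% of genes falling and a median of -4.42 points. Of 21 tested haematopoietic genes 5 fell (GPR65, CD69, RGS13, CD3E and LMO2), the list median was -11.3 points and 14 were lower. GPR65, CD69 and RGS13 were placed in the list with earlier results known, and without them 2 of 18 fell and the median was -5.37 points. CD3E, a subunit of the T cell receptor complex, went from 59.4 ± 9.21 to 20.5 ± 14.4% (n = 4 each; limma adjusted p = 0.0359). LMO2, a transcription cofactor of early blood development, had 73.6, 69.9, 66.8 and 55.9% in control and 41.0, 42.1, 44.7 and 40.3% in EPZ, a fall of 24.5 points (limma adjusted p = 0.0271). The list median was -4.39 with covered length as a covariate and -6.00 on lists of equal covered length. All other tested blood genes were not called, among them MS4A1 at -21.99 points (adjusted p = 0.323) and ITGAX at 7.69 (adjusted p = 0.641).

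Of 10 tested luminal epithelial genes, all 10 were lower and 2 fell, with a median of -16.0 points (-9.97 with covered length and -5.65 on lists of equal length). ALDH1A1, a retinal dehydrogenase used as a stem cell marker in breast tissue, went from 57.8 ± 15.7 to 13.6 ± 5.55% (n = 4 each; limma adjusted p = 0.0255). PROM1, the gene of the CD133 antigen, fell by 24.1 points (limma adjusted p = 0.0317). Without ALDH1A1, which was placed in the same way, 1 of 9 fell and the median was -9.83 points. ESR1, the oestrogen receptor, was at -3.8 points and FOXA1, its pioneer factor, at -28.4 points, and neither passed (adjusted p = 0.52 and 0.12). A list of tumour genes described elsewhere as EZH2 targets had 9 tested members, of which 8 were lower and 2 fell, ALDH1A1 and STMN2, with a median of -16.9 points (-13.9 with covered length and -11.5 on equal lists). Without ALDH1A1 it had 1 fall among 8 and a median of -16.7 points. STMN2, a stathmin of growing neurons, went from 48.2 ± 7.35 to 23.3 ± 9.43% (n = 4 each; limma adjusted p = 0.0364).

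Of 29 tested neuronal genes, 23 were lower and 2 fell (SCN2A and STMN2), with a median of -8.55 points that was -3.41 with covered length and -4.50 on equal lists. Sodium and potassium channel genes had 3 falls among 31: SCN2A by 28.9 points, KCND2 by 25.4 and SCN9A by 19.2. SCN2A and SCN9A encode sodium channels of central and of pain-sensing neurons, and KCND2 a transient potassium channel. Their neighbours SCN1A and SCN3A were at -23.5 and -30.1 points without a call. HOX genes had 6 tested of 39, and HOXD1 alone fell, from 40.2 ± 12.3 to 9.05 ± 6.57% (n = 4 each; limma adjusted p = 0.0253). Of the 6, 3 were higher and 2 lower, with a median of 1.29 points (4.04 with covered length). HOXC4 was at -10.3 points and HOXC13 at 5.0. In the germline list FIGLA, an oocyte transcription factor, fell by 35.1 points, 1 of 14 tested, and none of the 13 others fell by limma. The ligand list had 1 fall among 22, FGF7, a growth factor for epithelial cells, by 37.6 points. Among imprinted genes PLAGL1, a zinc finger regulator of fetal growth, fell by 20.1 points, 1 of 12.

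Other families had few or no calls. Of 40 tested developmental transcription factors none passed, with 8 at an unadjusted p under 0.05, and the median of -4.18 points turned to 1.31 with covered length. SOX17 was at -30.1 points and OTX2 at 16.3. None of 54 UDP-glucuronosyltransferase and cytochrome genes passed (17 at an unadjusted p under 0.05), and none of 16 hepatocyte genes (7 unadjusted), where albumin, ALB, was at -40.5 points (adjusted p = 0.061). None of 45 interleukin, chemokine and receptor genes passed. Its most negative member was CXCL9, an interferon-induced chemokine, with 100, 78.3, 30.3 and 21.4% in control and 0% in every EPZ library (difference -57.5, SE 14.9, adjusted p = 0.0506). Among 207 tested odorant receptors 3 fell and 1 rose, and among 72 keratin and keratin-associated genes 2 fell. The keratin median of -5.33 turned to 2.80 with covered length.

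Zinc finger genes lay on the other side of the background. Of 477 listed, 409 had a mean below 5% over the 16 libraries and 342 had no island in any. Of 64 tested, 45 were higher (70.3%, against 26.1% of all genes), 1 rose and none fell. Members with low coverage can enter the test only through libraries where they are high. ZNF382, at 0% in every control and P38i library, averaged 25.6% in EPZ and 18.3% in combo, so it could only count as higher. The share of higher members thus depends in part on the filter, and such members were not counted. The list median was 4.02 points, 7.45 with covered length and 9.77 on lists of equal length. At an unadjusted p under 0.05, 17 were higher, 26.6% of the list against 1.75% of all genes. After ZNF560 the largest were ZNF471 at 36.0 points and ZNF582 at 32.6, neither of which passed (adjusted p = 0.056 and 0.0612). Of the 64 tested members, 32 sit on chromosome 19, where 27 were higher, with a median of 4.88 points, against 115 of 225 other tested genes of that chromosome, with a median of 0.28. The 32 members on other chromosomes had a median of 2.45 points, and 18 were higher. In the libraries with the p38 inhibitor the list median was 4.57 points for combo minus P38i.

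The comparison of combo with P38i repeats the EPZ contrast in cells that all received the p38 inhibitor, and shares no library with EPZ and control. Of the 125 fallen genes, 124 were lower in combo than in P38i, against 76.6% of all tested genes. The exception was GPR37, an orphan receptor of oligodendrocytes, at 3.37 points after a fall of 20.4 under EPZ alone. In the same comparison 22 of the 125 passed the test, 17.6% against 1.92% of all tested genes. Both comparisons take their spread per gene from 1 fit of 16 libraries, so their calls are not independent. All 5 genes that rose were higher, against 23% of all genes, and 2 passed, LRRC38 and GRM6. MSANTD5 and GRM6 passed the filter on low values through libraries given EPZ, combo among them, which favours this direction. Among the named falls TAAR9 was at -77.1 points there (adjusted p = 0.0242), CGA at -53.1 (adjusted p = 0.00904) and RGS13 at -46.6 (adjusted p = 0.0397), while TAS2R9 was at -2.50. Combo lists also covered less length than P38i lists, 565 ± 43.2 against 620 ± 61.4 Mb (n = 4 each), and the part of covered length in the likeness was not tested. Across the 4104 genes the differences of the 2 comparisons had r = 0.51, where genes are not independent replicates. The test of the interaction itself passed for 2 of 4104 genes (0.0487%), with 141 (3.44%) at an unadjusted p under 0.05.

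**Figure D3:**
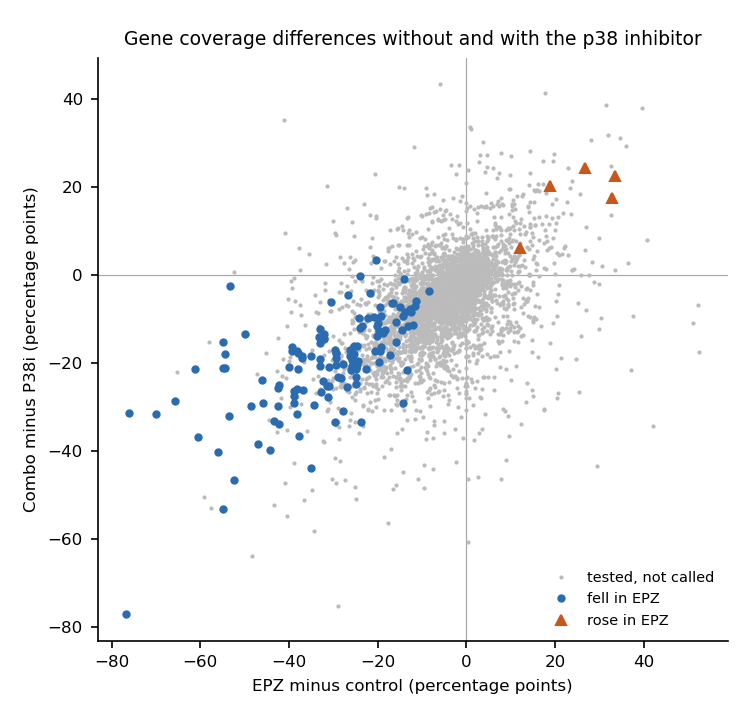
Difference in gene coverage, in percentage points, for EPZ minus control (x axis) and combo minus P38i (y axis); each point is 1 of 4104 tested genes, blue circles fell and orange triangles rose under EPZ alone. All fallen genes but GPR37 lie below 0 on the y axis, and all 5 rises above it.

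Some promoters lost their island cover in every EPZ library. For 15811 genes with a RefSeq promoter of 300 bases, a promoter was called covered where islands took at least 50% of it. Of 747 promoters covered in all 4 controls, 19 (2.54%) were covered in no EPZ library, and of 621 covered in all 4 EPZ libraries, 2 were covered in no control. In all 8 libraries 510 promoters were covered, 68.3% of the former and 82.1% of the latter. The 19 were those of ADH7, CCDC196, CXCL9, DEFB113, FABP7, GPR65, GPR85, LMO3, OPN5, OPRM1, OR52N5, OR6C74, PALMD, PCDH18, PLAC9, RGS13, SLC9A4, STOML3 and ZSCAN12. They include FABP7, a fatty acid carrier of glia, OPRM1, the mu opioid receptor, and PCDH18, a protocadherin. SLC9A4, a sodium-proton exchanger, lost its promoter although the coverage of its span was 81.0 ± 5.31% in control and 82.4 ± 3.94% in EPZ (n = 4 each). The 2 gained were those of MYO3A, a myosin of hair cells, and PCDHA12. In 14 of the 19 genes fewer combo than P38i libraries were covered, against 19.3% of all 747.

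The promoters of 3 lost genes and 1 gained gene are shown, the latter because it holds the most CG dinucleotides of the 21. The other gained promoter, that of PCDHA12, held 9. Each runs 5′ to 3′ on the gene's strand in GRCh38.p14, from RefSeq, and CG dinucleotides are in capitals.
GPR65 (chr14:88004885-88005184, plus strand), 1 CG, covered in 4 control and 0 EPZ libraries: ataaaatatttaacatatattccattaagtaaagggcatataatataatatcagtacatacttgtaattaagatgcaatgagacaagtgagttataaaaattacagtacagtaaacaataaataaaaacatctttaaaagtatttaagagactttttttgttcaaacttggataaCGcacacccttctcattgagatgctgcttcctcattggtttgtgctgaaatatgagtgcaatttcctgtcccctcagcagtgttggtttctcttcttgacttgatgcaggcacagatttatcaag
CXCL9 (chr4:76007460-76007759, minus strand), 0 CG, covered in 4 control and 0 EPZ libraries: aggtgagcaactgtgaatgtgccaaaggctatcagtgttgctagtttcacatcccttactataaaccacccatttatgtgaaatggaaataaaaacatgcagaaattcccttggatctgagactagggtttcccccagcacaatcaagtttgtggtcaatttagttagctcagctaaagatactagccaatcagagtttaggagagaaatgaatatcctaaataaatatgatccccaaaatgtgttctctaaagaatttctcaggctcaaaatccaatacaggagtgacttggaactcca
RGS13 (chr1:192635897-192636196, plus strand), 2 CG, covered in 4 control and 0 EPZ libraries: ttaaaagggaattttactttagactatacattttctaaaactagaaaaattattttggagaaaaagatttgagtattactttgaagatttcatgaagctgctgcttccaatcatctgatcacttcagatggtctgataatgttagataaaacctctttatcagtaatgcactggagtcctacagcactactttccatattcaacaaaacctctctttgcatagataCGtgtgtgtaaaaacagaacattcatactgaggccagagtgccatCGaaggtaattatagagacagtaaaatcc
MYO3A (chr10:25933979-25934278, plus strand), 31 CG, covered in 0 control and 4 EPZ libraries: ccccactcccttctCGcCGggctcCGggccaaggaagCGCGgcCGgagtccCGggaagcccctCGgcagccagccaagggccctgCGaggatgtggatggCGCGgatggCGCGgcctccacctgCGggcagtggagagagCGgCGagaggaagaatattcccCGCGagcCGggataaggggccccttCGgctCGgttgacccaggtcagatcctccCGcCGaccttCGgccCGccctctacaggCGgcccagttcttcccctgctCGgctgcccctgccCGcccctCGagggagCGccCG

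The 19 lost promoters held a median of 3 CG dinucleotides (range 0 to 24), as did the 747 promoters covered in all 4 controls (median 3, range 0 to 32), while all 15811 promoters held a median of 22. Low CG content thus belonged to the covered promoters at large, and the 3 lost promoters printed above do not stand apart from them in this.

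Over windows of 5 kb centred on gene starts the same test had 1 call among 2586 (0.0387%). SIDT1, a transmembrane protein of the RNA transporter family, had 38.9, 46.9, 56.0 and 56.0% of its start window covered in control and 0% in every EPZ library (difference -49.5, SE 7.34, adjusted p = 0.0109). The window was also at 0% in all combo libraries and at 26.5 ± 11.8% in P38i (n = 4). At an unadjusted p under 0.05, 252 start windows were lower and 40 higher, together 11.3% of those tested. The call was lost without EPZ 1 or EPZ 3, in the fit of the 2 groups and with windows of 2 kb, and without control 4 there were 19 falls. Among the 71 fallen genes whose start window was tested, 65 had a lower start window, with a median of -28.0 points beside -31.1 for their spans. These windows lie inside the spans that chose the genes. Over all start windows the median was -6 points and 1709 of 2586 were lower.

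In bins of 10 kb, 3 of 91045 fell (0.0033%) and none rose by limma, with 9464 lower and 1964 higher at an unadjusted p under 0.05. The groups were separate in 4200 bins (4.61%), 3591 of them lower. A bin in FABP7 (chromosome 6: 122770001 to 122780000) was covered by 80, 100, 96 and 66% in control and by 0% in all EPZ libraries (adjusted p = 0.0463). A bin in ASZ1, a germ cell gene (chromosome 7: 117360001 to 117370000), went from 94.0 ± 10.7 to 7.5 ± 7.55% (n = 4 each; limma adjusted p = 0.0463). The third (chromosome 6: 119520001 to 119530000) lay 169396 bp from MAN1A1, the nearest gene, and went from 72.0 ± 18.97% to 0%. It averaged 6.5% in P38i and 0% in combo. This bin thus passed the filter of a mean of at least 5% over the 16 libraries only through control, where it is high. The EPZ and combo groups at 0% throughout also lower its spread in the test. Over whole spans FABP7 fell by 32.0 points and ASZ1 by 34.4. In bins of 20 kb, 75 fell and 2 rose of 49924 (0.154% in all), and 42 of these 77 touched a gene, among them ADGRB3, HS3ST5 and FGF7. Leaving out 1 library moved the number of 10-kb bins that fell to 292 without control 4, 178 without EPZ 4, 17 without EPZ 3 and 1 without EPZ 1, EPZ 2 or combo 3. None fell without control 2, control 3, P38i 1, P38i 2, P38i 3, combo 1, combo 2 or combo 4, and 4, 7 and 11 rose without control 1, control 4 and EPZ 4.

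Covered length was compared by chromosome, a measure added after the data were seen, and no chromosome's share passed the adjusted test. The ratio of mean covered length in EPZ to that in control was below 1 on 20 of 23 chromosomes, lowest on chromosome 4 (0.709) and highest on chromosome 19 (1.10). Chromosome 4 had islands over 28.2 ± 6.47 Mb in control and 20.01 ± 4.39 Mb in EPZ (n = 4 each). Its share of all covered length was 5.01, 5.04, 4.99 and 3.90% in control and 3.40, 3.49, 3.80 and 4.36% in EPZ. Control 4 lay among the EPZ values, and the exact permutation test gave p = 0.0571 (adjusted over 23 chromosomes 0.11). Chromosome 19 took 1.41, 1.24, 1.2 and 1.37% in control and 1.64, 1.62, 1.68 and 1.47% in EPZ, with no overlap (exact p = 0.0286, adjusted 0.0821). On 8 chromosomes (34.8%) the shares did not overlap, lower in EPZ on chromosomes 3, 6 and 8 and higher on 9, 14, 17, 18 and 19, with 0.0821 as the lowest adjusted p. The difference in share had the same sign for combo minus P38i on 21 of 23 chromosomes, with ratios of 0.764 on chromosome 4 and 1.01 on chromosome 19.

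Fallen genes were counted by chromosome as well. On chromosome 4, 20 of 207 tested genes fell (9.66%), and the median difference was -12.8 points, and on chromosome 19 none of 257 fell, 1 rose and the median was 1.11. Chromosome 7 had 16 falls among 205 genes (7.8%), although its share of covered length differed by only -0.0115 points. Chromosome 2, with the second lowest ratio of covered length (0.806), had 9 among 240 (3.75%). The chromosome 4 falls included NPY1R, a neuropeptide Y receptor, with 63.5, 66.0, 81.3 and 58.8% in control and 19.2, 7.73, 37.3 and 35.5% in EPZ. LEF1, a transcription factor of WNT signalling, had 84.0, 76.3, 76.0 and 62.2% in control and 41.0, 31.0, 52.5 and 55.7% in EPZ. In neither gene did the groups overlap, and the limma adjusted p was 0.0253 for NPY1R and 0.033 for LEF1.

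**Figure D4:**
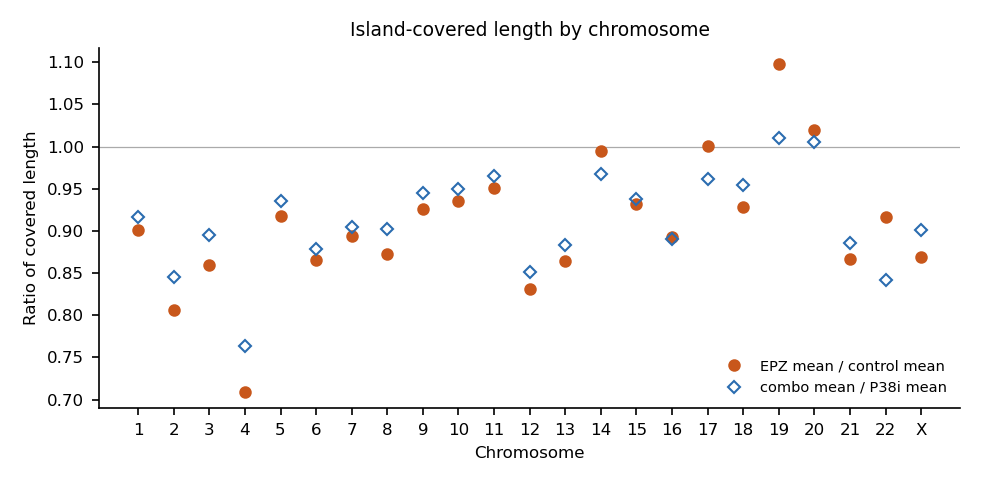
Ratio of mean island-covered length on each chromosome (x axis) for EPZ over control (filled circles) and combo over P38i (open diamonds). Chromosome 4 has the lowest ratio in both, 0.709 and 0.764, and chromosome 19 the highest, 1.10 and 1.01.

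Domains were next followed from island to island. The 14557 reference islands, taken from P38i libraries, spanned 354 Mb. Islands covered 96.3, 93.3, 91.8 and 84.5% of this length in control and 82.8, 83.0, 89.6 and 91.1% in EPZ (exact permutation test, p = 0.143). The groups overlapped in each of 7 measures of splitting and narrowing, and no measure passed. Reference islands held as 1 piece over at least 90% of their width made up 61.6, 41.9, 36.3 and 13.6% in control and 11.8, 15.0, 29.6 and 36.8% in EPZ (exact p = 0.229). Pieces per reference island were 1.82 ± 0.446 in control and 2.10 ± 0.397 in EPZ (n = 4 each, exact p = 0.4). The ends of the reference islands were covered by 88.7 ± 6.19% in control and 83.2 ± 5.00% in EPZ, and the middle by 93.3 ± 4.25 and 88.9 ± 3.96% (n = 4 each, exact p = 0.143 for each). On lists trimmed to equal covered length, the difference in reference length covered was -2.70 points (exact p = 0.143), against -4.87 as deposited. That in intact reference islands was -15.2 points (exact p = 0.229), against -15.1 as deposited. That in pieces per reference island was 0.374 (exact p = 0.343), against 0.275 as deposited. The part of covered length was not tested beyond this. With reference islands from combo in place of P38i, the difference in reference length covered was -2.07 points (exact p = 0.6). There it was -12.5 points in intact reference islands (exact p = 0.343) and 0.221 in pieces per reference island (exact p = 0.457).

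Inside control islands the description was alike. Against islands of the other 3 controls, the controls covered 95.2, 92.8, 90.5 and 78.7% of the length, and EPZ libraries covered on average 78.7, 79.1, 85.8 and 88.6% of the same sets. On the set that control 4 was measured on, where it covered 78.7%, the EPZ libraries covered 75.7, 76.3, 83.4 and 86.5%, so that control 4 lay between EPZ 2 and EPZ 3. No test was made there, because islands defined in control favour control by construction.

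Reference islands with no island at all made up 0.508, 0.213, 0.412 and 0.337% in control and 0.694, 1.51, 0.934 and 1.18% in EPZ. The groups did not overlap (exact p = 0.0286, the smallest the design allows, for a measure added after seeing the data). The difference was 0.71 points, and it was 0.06 with reference islands of at least 20 kb (exact p = 0.314), 0.17 with reference islands from combo (exact p = 0.257) and -1.29 on lists trimmed to equal covered length (exact p = 0.571). The trim keeps the widest islands of each list, so it takes narrow islands from the longer lists. On the lists as deposited, without any 1 control the exact p was 0.0571, and without any 1 EPZ library it stayed at 0.0286. Every EPZ library lay below every control library in coverage of 688 reference islands (4.73%) and above in 27 (0.185%). In all, 6 islands were absent from at least 3 EPZ libraries and present in all 4 controls, and none the other way round. With reference islands from combo, whose cells received EPZ as the P38i cells did not, 2 were absent in each direction, and EPZ lay below every control in 283 of 12281 islands and above in 43. One of the 6 P38i reference islands absent from EPZ, chromosome 1: 73640801 to 73654200, had 100, 100, 100 and 53.7% in control and 0% in all EPZ libraries. It is 13.4 kb wide and lies in a gene desert, with LRRIQ3 the nearest gene at 372 kb. Another of the 6, of 12 kb, lies in PDE3A, a phosphodiesterase, on chromosome 12, with 96.7, 73.3, 95 and 35% in control and 18.3, 0, 0 and 0% in EPZ. The 2 combo islands absent from at least 3 controls and present in all EPZ libraries lay in MUC16, a mucin, and OPCML, a neuronal adhesion protein. MUC16 had 0% in all controls and 40, 16, 88 and 90% in EPZ.

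**Figure D5:**
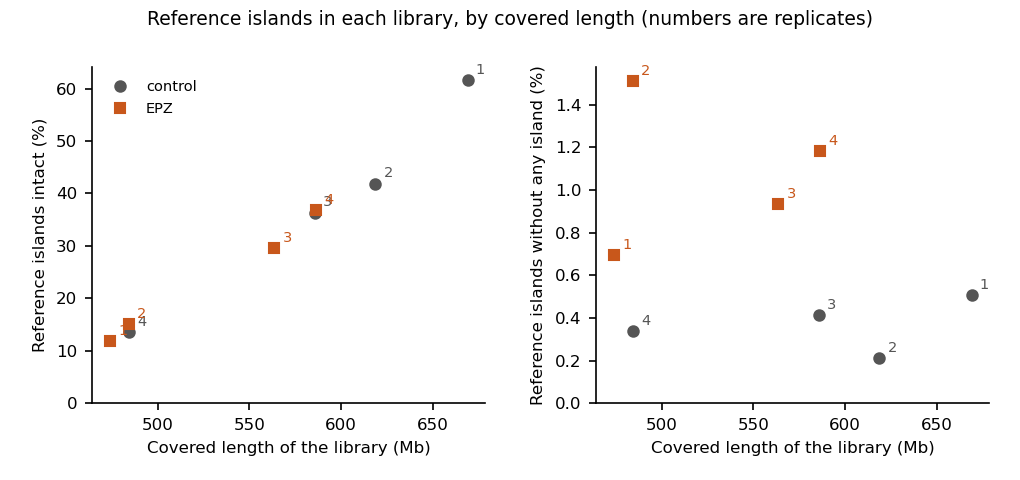
Each of the 4 control (grey circles) and 4 EPZ (orange squares) libraries by covered length in Mb (x axis), with the percent of 14557 reference islands held intact (left) and the percent without any island (right). Intact islands rise with covered length in both groups, whereas the EPZ libraries lie above all controls on the right, 0.694 to 1.51% against 0.213 to 0.508%.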

How the data were processed

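H3K27me3 was profiled by ChIPmentation in MDA-MB-231 cells, and the deposited files are 1 list of islands per library. Per the labels' protocols, chromatin of fixed cells was sheared, precipitated and tagmented on beads. Per the submitters' processing notes islands came from SICER, reads from Bowtie2 2.3.4.1 with FastQC, cutadapt and Trim Galore, and SAMtools 1.2, bedtools 2.28.0 and Picard were also named, on build hg38. The order and settings of these tools are not stated in the labels. The authors deposited island starts and ends only, with no other measure, score or count, so read depth is unknown and no counting error can be given. Island bounds fell on windows of 200 bp. A shallower or noisier library can return fewer, shorter or more broken islands, and every value describes called islands, not amounts of the mark.

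Islands were set against 19970 protein-coding RefSeq genes (GRCh38.p14), and the percent of each span, with 2.5 kb added on both sides, inside islands was taken. Genes with a mean from 5 to 95% over 16 libraries were tested (4104; 15515 lay below and 351 above). With its trend and robust options, limma 3.58.1 in R 4.3.3 was fitted to the 16 libraries of all 4 treatments, which share 1 spread per gene, with Benjamini-Hochberg adjustment over all features tested and a threshold of 0.05. Bins of 10 kb and windows of 5 kb centred on the gene start (strand known for 15811 genes) were treated alike. Values of 1 per library were compared by 2-sided exact permutation tests. The 70 arrangements of 4 against 4 allow no p under 0.0286. Reference islands were stretches of at least 10 kb covered in at least 3 of the 4 P38i libraries, so that neither group compared defined them. Coverage was checked with bedtools 2.31.1 on 299 genes (largest difference 0), and the fit was tested on simulated data. Tables and exact tests were made with scipy 1.17.1, pandas 2.3.3 and numpy 2.4.6 under Python 3.11.15, and plots with matplotlib 3.10.9.

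The genes named were the 20 largest falls, the 10 largest rises, up to 4 called members of each gene list, genes in called 10-kb bins, EZH2 and MAPK14. The members and lists were chosen with earlier results of these data known. GPR65, CD69, RGS13, ALDH1A1 and FIGLA were placed in their lists in that way. The measure of reference islands without any island and the shares by chromosome were added after the data were seen. The labels do not say whether replicates were separate cultures, so p-values measure only the spread between these libraries, which may be technical. The alternatives are given in the closing section.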

Additional observations from a re-analysis of the deposited data

Results flagged for a closer look

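In 7 of 120 groups of 4 values examined, 1 library stood apart from the other 3 by Dixon's test (chance gives about 1 in 20). Control 4 stood low for CD69 (41.7%), CLEC12B (69.3%), KCND2 (73.1%) and the share of covered length on chromosome 4 (3.90%). Control 2 stood low for OR2AG1 (94.1%), where the other controls were at 100%. Among EPZ libraries, replicate 1 stood high for RGS13 (46.5%) and replicate 4 for AMTN (48.7%).

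The effect of EPZ differed with and without the p38 inhibitor, by limma's interaction test, for LOC107987433 (-48.0 points, adjusted p = 0.0212) and ZNF853 (-24.5 points, adjusted p = 0.0212). LOC107987433 was at 0% in all control and combo libraries and at 30.5 ± 5.98% in P38i and 17.5 ± 13.1% in EPZ (n = 4 each). ZNF853 had islands in the P38i libraries only, 24.5 ± 6.998% (n = 4). Its 12 other libraries were at 0%, so it passed the filter on low values only through P38i, and its EPZ libraries did not differ from control. Groups at 0% throughout also lower the spread used in the test.

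Islands on chromosome Y were outside the main measurement. There were 0 in each control library and 1, 3, 4 and 3 in EPZ libraries 1 to 4. P38i libraries held 0, 1, 0 and 0 and combo libraries 1, 1, 3 and 4. All lay between positions 11279401 and 11331600 or between 56836201 and 56881000. They covered only 1.2, 8.6, 14.2 and 17.8 kb in EPZ libraries 1 to 4. Island lists hold no reads, so whether these reads came from chromosome Y was not tested, and no gain of the mark there is claimed.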

How the results depend on the processing

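Islands carry no depth, so a narrower list cannot be told apart from a shallower library, and this limits every count below. For genes, 125 fell and 5 rose. With covered length as a covariate 69 fell and 35 rose, with the replicate block 80 and 1, in the fit of the 2 groups 23 and 2, and without the narrowest libraries 56 and 1. On lists of equal covered length 15 fell, without a filter 3 rose, and with islands closer than 2 kb joined 9 rose. Leaving out 1 library gave 11 to 410 falls and 0 to 11 rises. For 36 named genes, 605 of 970 values kept their call, 365 lost it and none reversed. That none reversed is favoured by choosing the genes in the same libraries.

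For bins of 10 kb, 3 fell and 0 rose. By limma 0 fell with covered length as a covariate, with the replicate block, in the fit of the 2 groups, without the narrowest libraries, on lists of equal covered length and in bins of 5 kb. Without a filter 49 fell and 5 rose, on the arcsine square root scale 42 and 5, and in bins of 20 kb 75 and 2. Leaving out 1 library gave 0 to 292 falls and 0 to 11 rises. Of gene start windows 1 fell. Covered length as a covariate added 1 rise, no filter gave 4 falls, and the fit of the 2 groups and windows of 2 kb gave 0. Leaving out 1 library gave 0 to 19 falls and 0 to 1 rises.

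The share of covered length in gene spans was -1.01 points on lists of equal covered length (exact p = 0.0286; -0.47 as deposited). That on chromosome X was 0.147 on such lists (exact p = 0.0286; -0.0640 as deposited) and ranged from -0.153 to 0.0051 with 1 library left out, turning positive without control 1. That in gene start windows ranged from -0.0492 to 0.000212, turning positive without EPZ 4. Reference islands without any island differed by 0.0597 points with references of at least 20 kb, 0.171 with references from combo, -1.29 on lists of equal covered length, 0.713 with the replicate block (exact p = 0.125) and 0.569 to 0.842 with 1 library left out. The cause of these changes was not tested. Lists of equal covered length keep the widest islands of each list, so narrow islands are removed from the longer lists by construction. Same-numbered libraries correlated at -0.151 to 0.0053 in their deviations from the group means and others at -0.0633 to 0.164. No pairing by number was thus seen in these values. Whether libraries of the same number shared a culture or batch was not tested.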
